A study of Mus musculus with 12 samples.

Results

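The 10 genes described here are members of the BCL2 family of apoptosis regulators. They are the anti-apoptotic genes Bcl2, Bcl2l1 (BCL-XL) and Mcl1, the pore-forming genes Bax and Bak1, and the BH3-only genes Bcl2l11 (BIM), Bbc3 (PUMA), Pmaip1 (NOXA), Bid and Bad. They were chosen by gene symbol among the 24411 symbols of the deposited expression table, and all 10 were present and above the minimum level for testing. The cells were mouse BALB/c bone marrow cells made to express mutant CSF3R, a cytokine receptor, and mutant CEBPA, a myeloid transcription factor, by retrovirus. The sample titles call them murine leukemia cells. The exact alleles and the number of independent transductions are not given in the sources used here. All 4 groups carried both mutants, were grown in IMDM with 20% fetal bovine serum and were kept for 24 h in DMSO (the solvent), in 50 nM ruxolitinib (an inhibitor of JAK1 and JAK2), in 2 nM GSK-LSD1 (which blocks LSD1, an eraser of histone methylation), or in both drugs together, here called the combination. Each group had 3 RNA-seq libraries. Separate cultures behind the libraries are not stated, so p-values measure the spread between libraries, which may be technical.

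BCL2 family proteins decide whether the outer mitochondrial membrane is opened. BAX and BAK form the pores that release cytochrome c, the anti-apoptotic members hold them and the BH3-only proteins in check, and BH3-only proteins such as BIM and PUMA bind the anti-apoptotic members and activate the pore formers. In myeloid cells MCL1 and BCL-XL are known as survival factors downstream of cytokine receptors, and BIM is known to rise when cytokine signalling is withdrawn.

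Bcl2l11 was the member with the largest change. Its transcript rose 1.8-fold after GSK-LSD1 and 1.67-fold after the combination, and was at the DMSO level after ruxolitinib (0.961-fold, not passing the test). Bbc3 also rose after GSK-LSD1 (1.35-fold, failing the test in 4 of 24 alternative analyses) and after the combination (1.62-fold). Pmaip1 and Bcl2 fell after the combination, to 0.812 and 0.796 of the DMSO level, though these falls failed the test in 2 and 10 of those 24. Transcripts of Mcl1, Bcl2l1, Bax, Bak1, Bid and Bad did not pass the test in any comparison.

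The promoters of Bcl2l11 and Bbc3, which rose, are shown because they allow the sequence at the start sites to be read beside the values. Each window runs from 250 bases before to 50 bases after a RefSeq start site (build GRCm38.p6, reference strain C57BL/6J, not BALB/c), 5′ to 3′ on the gene's strand. A window of Bmf, a BH3-only gene outside the 10 members that rose with the same treatments, is printed for comparison. Capitals mark matches to 2 motifs. These are AATCAC, the core bound by the repressor GFI1 that recruits LSD1, and GTAAACA, the motif of FOXO factors. TTCNNNGAA (STAT factors), CACGTG (the E-box) and RRRCWWGYYY (a p53 half-site) were also searched and matched none of the printed windows. Every motif was searched on both strands.
Bcl2l11 chr2:128125788-128126087 (+): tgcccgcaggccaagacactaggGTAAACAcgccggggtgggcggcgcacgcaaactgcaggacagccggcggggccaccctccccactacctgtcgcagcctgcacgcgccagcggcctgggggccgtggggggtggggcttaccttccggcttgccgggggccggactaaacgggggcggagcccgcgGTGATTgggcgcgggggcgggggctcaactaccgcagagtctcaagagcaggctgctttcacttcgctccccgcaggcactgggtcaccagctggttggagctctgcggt
Bcl2l11 chr2:128127325-128127624 (+): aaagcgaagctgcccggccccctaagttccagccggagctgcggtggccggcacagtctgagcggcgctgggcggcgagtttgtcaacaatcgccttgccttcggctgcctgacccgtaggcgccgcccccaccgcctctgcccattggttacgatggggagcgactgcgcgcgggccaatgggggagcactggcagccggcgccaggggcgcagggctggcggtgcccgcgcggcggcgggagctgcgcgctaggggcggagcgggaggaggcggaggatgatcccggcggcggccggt
Bbc3 chr7:16310011-16310310 (+): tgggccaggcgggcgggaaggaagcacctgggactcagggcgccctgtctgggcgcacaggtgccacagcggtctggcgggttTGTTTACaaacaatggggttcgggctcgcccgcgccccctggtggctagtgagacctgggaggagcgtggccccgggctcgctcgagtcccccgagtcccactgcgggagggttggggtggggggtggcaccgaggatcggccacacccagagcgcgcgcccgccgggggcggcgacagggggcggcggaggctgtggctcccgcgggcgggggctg
Bmf chr2:118549637-118549936 (-): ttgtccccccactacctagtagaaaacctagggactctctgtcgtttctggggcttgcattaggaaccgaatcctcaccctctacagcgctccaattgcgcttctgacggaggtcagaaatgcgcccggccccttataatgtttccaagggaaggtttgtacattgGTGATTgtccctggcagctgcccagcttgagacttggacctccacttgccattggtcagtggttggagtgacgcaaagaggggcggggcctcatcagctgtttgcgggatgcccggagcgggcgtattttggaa
The first Bcl2l11 window held GTAAACA 227 bases before the start site and AATCAC, read as its reverse complement, 60 bases before it. The second held neither. This Bbc3 window, 1 of 3 listed for the gene, held GTAAACA on the other strand 167 bases before the start site, and this Bmf window, also 1 of 3, held AATCAC on the other strand 84 bases before it. The last bases of the printed Bbc3 window, after its start site, were found in no GENCODE transcript of the gene. Those of the other printed windows were, so the Bbc3 start site is less certain. The remaining windows of Bbc3 and Bmf, which are not printed, held neither motif, so the printed ones were picked for their matches. An unprinted Bbc3 window held the E-box and an unprinted Bmf window the p53 half-site. The Bax window, also unprinted, held both of these. Over all 32851 RefSeq promoter windows of that length, AATCAC was present in 10.4%, GTAAACA in 3.65%, the E-box in 7.15% and the p53 half-site in 8.36%. These matches describe letters in the windows and nothing about binding. Windows of 9 of the 10 members were read, 15 in all, and Pmaip1 was left out, so its promoter was not searched for any motif. None of the 15 held TTCNNNGAA, the motif of STAT factors, which 8.3% of all windows held.

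Values are the authors' normalised read counts, and a library summed to between 8193575 and 8499106 of them. Libraries that lay farthest from their own group were ruxolitinib replicate 2 and combination replicate 3 (root mean square deviation 0.176 and 0.183 on the log2 scale, against 0.129 to 0.157 for the others). The deviations of several libraries followed the GC content of transcripts (Spearman's rho across 11053 genes 0.43 and 0.573 for these, and -0.437 to 0.266 for the others). For the members that depended most on these libraries, values are given with and without them. The 12 genes of a myeloid progenitor list, Mpo, Elane, Csf3r and Cebpa among them, were all detected, with a summed level of 23631 to 24686 after DMSO. Reads of Csf3r and Cebpa could come from the introduced mutants, so their detection says nothing about cell type. Mast cell and basophil genes were detected too (all 10, summed level 24183 to 26882 after DMSO). Of 10 erythroid genes, the globin genes Hba-a1, Hbb-bt and Hbb-bs were listed at 0 in every library. The erythroid list still summed to 5117 to 5608 after DMSO. Of 10 lymphoid genes, Ms4a1, Cd4 and Ncr1 were listed at 0 in every library, and that list summed to 28.01 to 43.57 after DMSO.

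**Figure D1:**
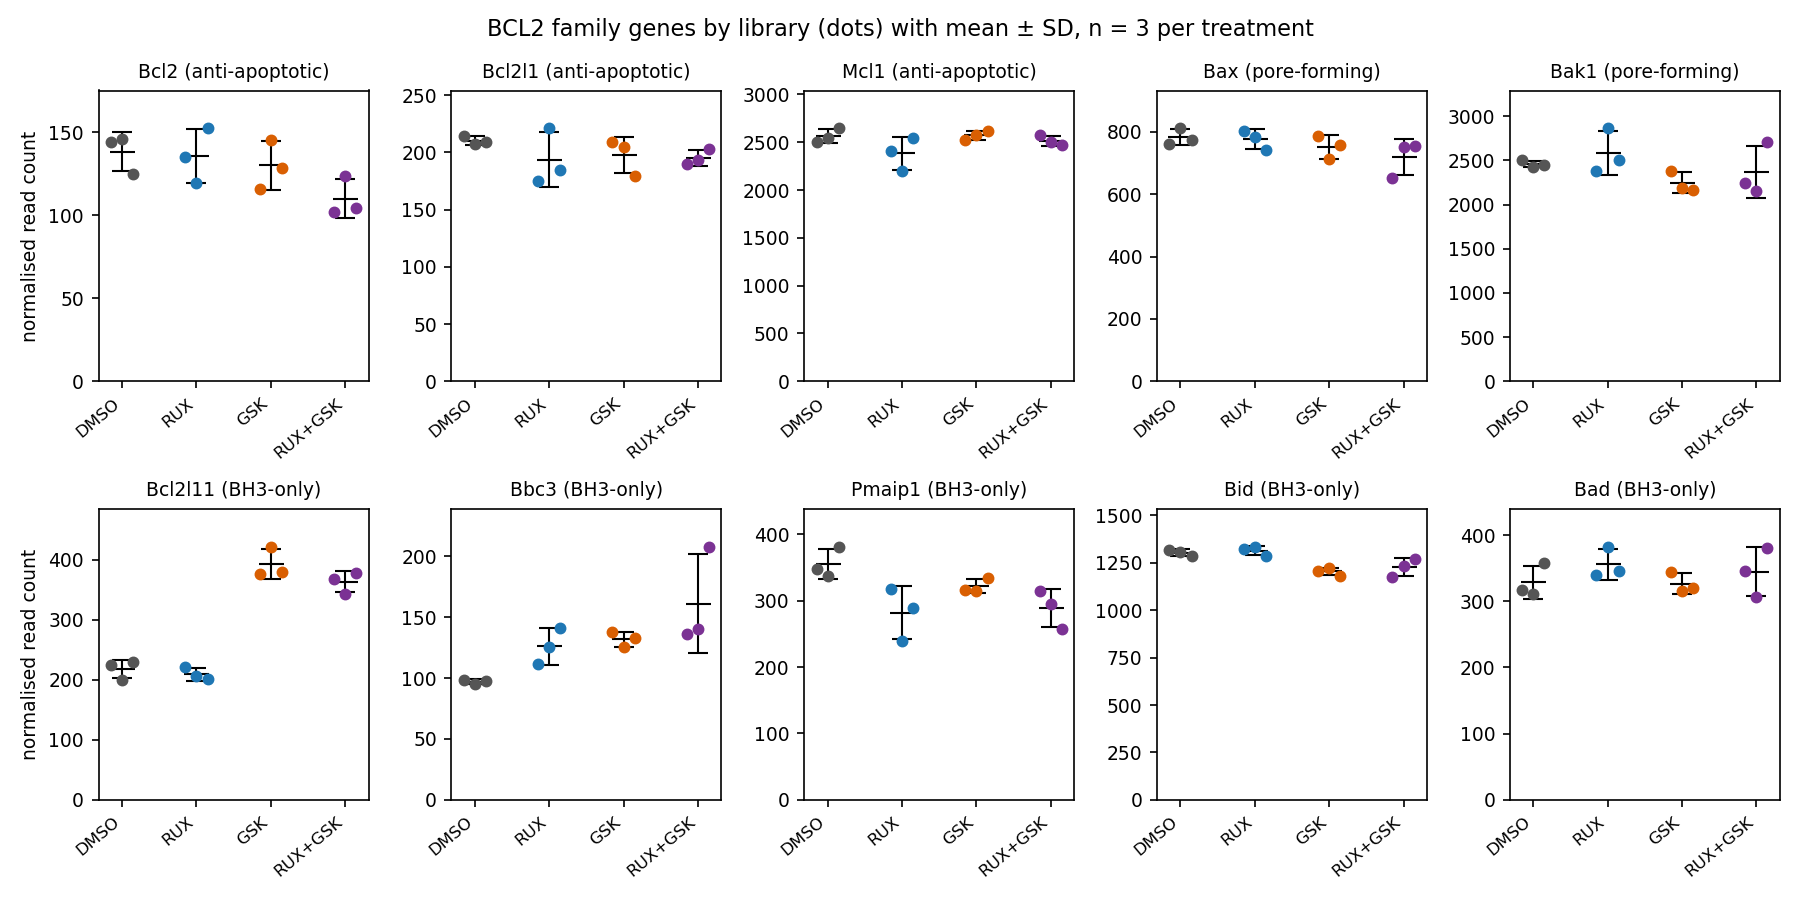
Normalised read count (y axis, from 0, a scale for each gene) of the 10 BCL2 family genes in each library (dots), with mean ± SD over 3 libraries, for DMSO, ruxolitinib (RUX), GSK-LSD1 (GSK) and both (RUX+GSK). Bcl2l11 lies at 200.1 to 228.7 in the DMSO and ruxolitinib libraries and at 343.3 to 421 in the libraries with GSK-LSD1, and the combination libraries of Bbc3 are spread by replicate 3 at 207.8.

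Among the BH3-only genes, Bcl2l11 encodes BIM, which binds all anti-apoptotic members. The gene lies at chr2:128126038-128162547 (GRCm38, plus strand) and shares no exonic sequence with another gene. After DMSO its normalised read count was 224.4, 200.1 and 228.7 in replicates 1 to 3, and after ruxolitinib it was 220.9, 205.5 and 200.6. After GSK-LSD1 it was 376.7, 421 and 379.9, and after the combination 368, 343.3 and 377.9. All 6 libraries with GSK-LSD1 were above all 6 without it, and within each of these sets of 6 the groups overlapped. The mean was 217.7 ± 15.5 after DMSO, 209 ± 10.6 after ruxolitinib, 392.5 ± 24.7 after GSK-LSD1 and 363.1 ± 17.8 after the combination (SD, n = 3 each). On the log2 scale the change with GSK-LSD1 was 0.85 ± 0.09 (SE; adjusted p = 1.9e-07, limma over 11484 genes) and with the combination 0.74 ± 0.09 (adjusted p = 7.54e-07). These lay above the changes of 96.2% and 93.1% of all genes tested. GSK-LSD1 on top of ruxolitinib gave 0.79 ± 0.09 (adjusted p = 4.29e-07). Ruxolitinib alone gave -0.06 ± 0.09 (95% interval -0.24 to 0.12, adjusted p = 0.769), and on top of GSK-LSD1 -0.11 ± 0.09 (95% interval -0.29 to 0.07, adjusted p = 0.645). The rise passed the test in all 24 alternatives run for each of the 3 comparisons, with log2 changes from 0.68 to 0.88.

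Bbc3 encodes PUMA, a BH3-only protein best known as a target of p53, at chr7:16308393-16318205 (plus strand), with no overlapping exon. Its normalised read count was 98.31, 95.02 and 98.03 after DMSO, 111.4, 125.3 and 141.3 after ruxolitinib, 137.9, 125.4 and 132.6 after GSK-LSD1, and 135.9, 140.1 and 207.8 after the combination. Every treated library was above every DMSO library, and the 3 treated groups overlapped with each other except that combination replicate 3 stood above all others. The DMSO libraries lay closer together (SD 1.82) than counting alone would give at that level (9.86, if a normalised count is a read). The log2 change was 0.37 ± 0.14 with ruxolitinib (unadjusted p = 0.0159, adjusted p = 0.177, limma), 0.44 ± 0.14 with GSK-LSD1 (adjusted p = 0.0203) and 0.70 ± 0.14 with the combination (adjusted p = 0.000395). Bbc3 had a transcript GC content of 65.2%, higher than or equal to 99.7% of tested genes. After correction for GC content its change was 0.23 with ruxolitinib (adjusted p = 0.339), 0.40 with GSK-LSD1 (adjusted p = 0.00811) and 0.62 with the combination (adjusted p = 0.000123). Without ruxolitinib replicate 2 and combination replicate 3 the change with the combination was 0.50, which passed the test. With GSK-LSD1 it no longer passed under quantile normalisation (0.31, adjusted p = 0.115), nor when 1 of 3 libraries was removed: DMSO replicate 2 (adjusted p = 0.0586), GSK-LSD1 replicate 1 (0.0653) or GSK-LSD1 replicate 3 (0.0571).

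Pmaip1 encodes NOXA, a BH3-only protein that binds MCL1. Its normalised read count was 347.6, 337.1 and 381.2 after DMSO and 317.4, 239.4 and 289.5 after ruxolitinib. It was 315.7, 315.5 and 334.1 after GSK-LSD1 and 314.4, 295 and 257.6 after the combination. All 9 treated libraries were below the 3 DMSO libraries, with ruxolitinib replicate 2 and combination replicate 3 the lowest. It fell by 0.30 ± 0.10 on the log2 scale with the combination (adjusted p = 0.0195). With ruxolitinib alone the log2 change was -0.34 ± 0.10 (adjusted p = 0.0817), lower than that of all but 2.7% of tested genes, and with GSK-LSD1 alone it was -0.14 ± 0.10 (adjusted p = 0.297). The fall with the combination failed the test once DMSO replicate 3 was removed (-0.25, adjusted p = 0.0955), and likewise combination replicate 3 (-0.22, adjusted p = 0.087). The ruxolitinib value passed the test without ruxolitinib replicate 1 (-0.43, adjusted p = 0.0442) or combination replicate 3 (-0.34, adjusted p = 0.0317). Without ruxolitinib replicate 2 and combination replicate 3 together it was -0.23 (adjusted p = 0.15), and after the GC correction -0.26 (adjusted p = 0.0912). The combination value was -0.22 (adjusted p = 0.0321) and -0.20 (adjusted p = 0.0494) in the same settings.

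Bid (chr6:120891930-120916853, minus strand), whose protein links death receptors to mitochondria when cut by caspase-8, and Bad (chr19:6941861-6951899, plus strand), whose protein binds BCL-XL and BCL2 and is kept inactive by phosphorylation, varied less. Bid was at 1287 to 1320 after DMSO, 1287 to 1334 after ruxolitinib, 1183 to 1223 after GSK-LSD1 and 1177 to 1270 after the combination. The 6 libraries with GSK-LSD1 lay below the 6 without it, by -0.11 ± 0.06 for GSK-LSD1 alone (adjusted p = 0.12) and -0.09 ± 0.06 for the combination (adjusted p = 0.208), and neither passed. With GSK-LSD1 alone Bid passed at the same size without ruxolitinib replicate 2 and combination replicate 3 (adjusted p = 0.0465) and at -0.13 after the GC correction (adjusted p = 0.0281), and with the combination it passed at -0.12 after that correction (adjusted p = 0.035). Bad ranged from 306.8 to 382.2 over the 12 libraries, with overlapping groups, and its log2 changes against DMSO lay between -0.01 and 0.12 (SE 0.09). Exons of Bad and Bid overlap those of Gpr137 (20.5% of the Bad exon length) and Bcl2l13 (17.7% of Bid) on the other strand. Strand use in the counting is not given in the sources used here, so part of their reads could belong to the neighbour.

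Of the anti-apoptotic genes, Bcl2 itself (chr1:106538178-106714274, minus strand), the founding member of the family, gave 144, 146 and 124.8 normalised counts after DMSO, 135.3, 119.2 and 152.2 after ruxolitinib, 115.9, 145.3 and 128.6 after GSK-LSD1, and 102.2, 123.3 and 104.4 after the combination. The single drugs overlapped with DMSO, and the combination libraries were all below it, the nearest pair being 123.3 and 124.8. An antisense gene, D630008O14Rik, overlaps 6.09% of the Bcl2 exon length, so some reads could belong to it. The log2 change with the combination was -0.33 ± 0.13 (adjusted p = 0.0403), against -0.03 ± 0.13 with ruxolitinib and -0.09 ± 0.13 with GSK-LSD1 alone. The difference of the combination from the sum of both single changes was -0.21 ± 0.18 (95% interval -0.58 to 0.16), so a larger than additive fall was not shown. This fall did not pass in 10 of 24 alternatives, among them the GC correction (-0.28, adjusted p = 0.0577), the replicate block (adjusted p = 0.0512), removal of the filter on low values (0.0657), sample weights (0.0547) and leaving out DMSO replicate 1 (0.118), DMSO replicate 2 (0.127), combination replicate 1 (0.129) or combination replicate 3 (0.0933).

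Mcl1 (chr3:95658788-95663176, plus strand), which encodes a short-lived protein that holds BAK, was at 2499 to 2644 after DMSO, 2201 to 2544 after ruxolitinib, 2522 to 2618 after GSK-LSD1 and 2472 to 2572 after the combination. The groups overlapped in each comparison. The 95% interval of its log2 change was -0.11 to 0.12 with GSK-LSD1, -0.23 to 0.01 with ruxolitinib and -0.15 to 0.09 with the combination, so a change as large as that of Bcl2l11 lay outside all 3. Bcl2l1 (chr2:152780668-152831728, minus strand), which encodes BCL-XL and is a known STAT5 target, was at 207.1 to 214.5 after DMSO, 175.1 to 220.9 after ruxolitinib, 179.5 to 208.8 after GSK-LSD1 and 189.4 to 202.9 after the combination. Its log2 change was -0.12 ± 0.10, -0.09 ± 0.10 and -0.11 ± 0.10 with ruxolitinib, GSK-LSD1 and the combination, and none passed.

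The pore formers did not pass either. Bak1 (chr17:27019810-27029009, minus strand), whose protein sits on the outer mitochondrial membrane, was at 2430 to 2502 after DMSO, 2381 to 2863 after ruxolitinib, 2164 to 2386 after GSK-LSD1 and 2153 to 2711 after the combination. The highest value in each ruxolitinib-treated group came from the libraries that stood apart, 2863 in ruxolitinib replicate 2 and 2711 in combination replicate 3. The log2 change with the combination was -0.06 ± 0.08 with them (adjusted p = 0.549) and -0.16 without them (adjusted p = 0.00884), and the change with GSK-LSD1 alone, -0.13 ± 0.08 (adjusted p = 0.2), passed at the same size without them (adjusted p = 0.0175). Bax (chr7:45461697-45466898, minus strand), whose protein moves from the cytosol to mitochondria when activated, ranged from 652.6 to 811.2, with log2 changes of -0.01 to -0.12 (SE 0.07) against DMSO. With the combination Bax was at -0.16 without these libraries (adjusted p = 0.0494) and at -0.20 after the GC correction (adjusted p = 0.0244). Exons of Bak1 overlap those of Ggnbp1 on the other strand and exons of Bax those of Gm45808 on the same strand (12.2% of the Bax exon length), which makes both values uncertain to that extent.

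**Figure D2:**
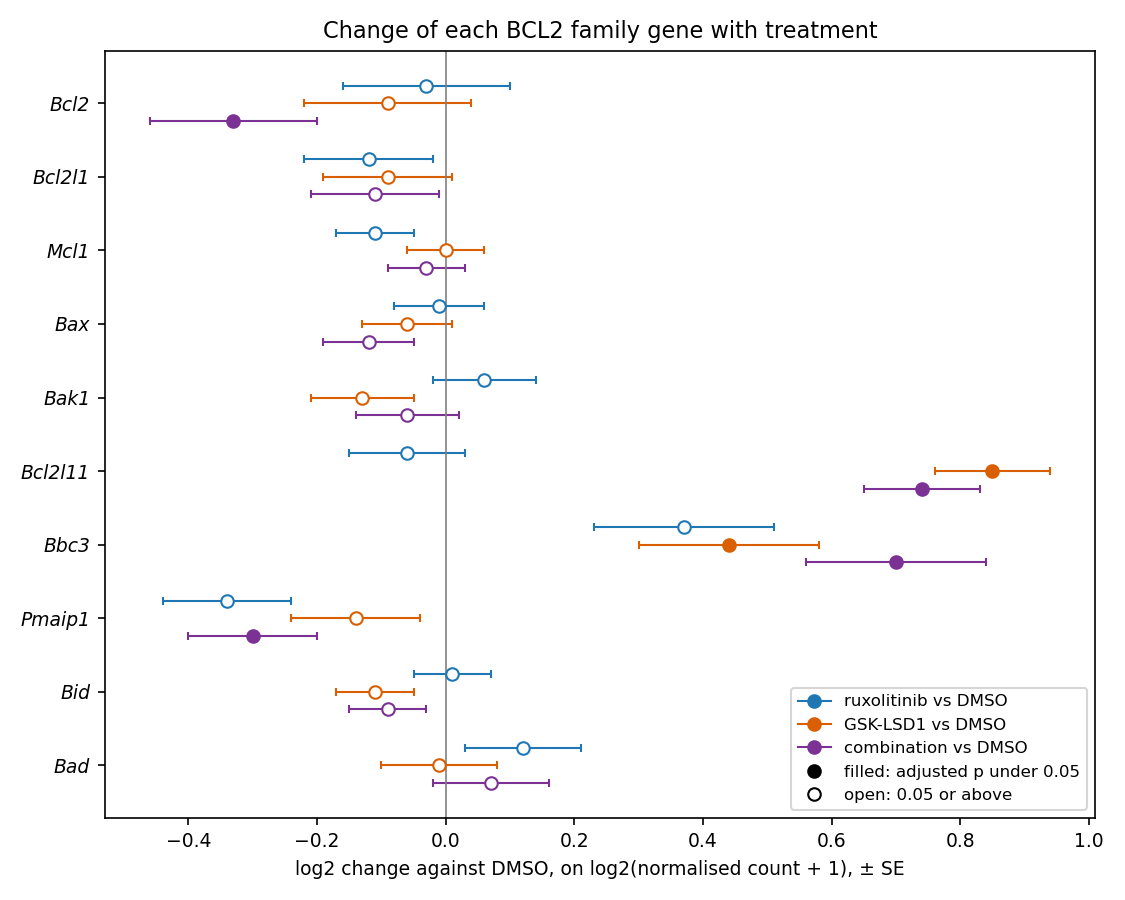
Change of each gene against DMSO on the log2(normalised count + 1) scale (x axis), with the standard error of the fit (bars), for ruxolitinib, GSK-LSD1 and the combination. Filled points passed an adjusted p of 0.05. Bcl2l11 lies near 0 with ruxolitinib and at 0.85 and 0.74 with GSK-LSD1 and the combination, and the 3 points of Mcl1, Bcl2l1, Bax, Bak1, Bid and Bad are open.

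Counted by comparison, 0 of 10 members passed with ruxolitinib against DMSO, where 1.63% of all genes tested passed, 1% as higher and 0.627% as lower (limma; 2 members had an unadjusted p under 0.05, Bbc3 and Pmaip1). With GSK-LSD1 2 of 10 passed, both higher, where 32.5% of all genes passed, 17% as higher and 15.5% as lower. With the combination 4 of 10 passed, 2 higher and 2 lower, where 42.3% of all genes passed, 20.5% as higher and 21.8% as lower. The share for the combination was near that of all genes, and after the GC correction 4 and 6 of 10 members passed with GSK-LSD1 and the combination, where 37.8% and 45.5% of all genes did, so these counts are no result about the family. The median log2 change of the 10 members was -0.02 with ruxolitinib and -0.07 with either of the other treatments, against 0, 0 and -0.01 over all genes tested. Groups did not overlap for 2, 5 and 7 of the 10 members with ruxolitinib, GSK-LSD1 and the combination, where this held for 23.7%, 50.9% and 51.6% of all genes. These 3 comparisons share the DMSO libraries.

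The combination was also compared with each single drug. Against ruxolitinib 1 of 10 passed, Bcl2l11, where 31.6% of all genes passed, 16% as higher and 15.6% as lower, and Bbc3 (0.33 ± 0.14, adjusted p = 0.0751) and Bcl2 (-0.30 ± 0.13, adjusted p = 0.0776) did not. Bbc3 passed there without ruxolitinib replicate 3 (0.42, adjusted p = 0.0473) or combination replicate 1 (0.44, adjusted p = 0.0366) and after the GC correction (0.39, adjusted p = 0.00983). Without ruxolitinib replicate 2 and combination replicate 3 the Bbc3 value there was 0.14 (adjusted p = 0.499). Bcl2 passed without ruxolitinib replicate 2 (-0.39, adjusted p = 0.0368) or combination replicate 2 (-0.38, adjusted p = 0.0471), and Bak1 without combination replicate 3 (-0.23, adjusted p = 0.011). Against GSK-LSD1 0 of 10 passed, where 1.4% of all genes did, 1.05% as higher and 0.348% as lower, and none had an unadjusted p under 0.05 (limma). Groups did not overlap for 2 members against ruxolitinib (Bcl2l11 and Bid) and for 1 against GSK-LSD1 (Pmaip1), where this held for 38.5% and 18.1% of all genes. The largest values against GSK-LSD1 were 0.26 ± 0.14 for Bbc3 (adjusted p = 0.464) and -0.24 ± 0.13 for Bcl2 (adjusted p = 0.46), and without ruxolitinib replicate 2 and combination replicate 3 that of Bbc3 was 0.06 (adjusted p = 0.892). No member showed a combined change different from the sum of both single changes (interaction, 0 of 10, 0 with an unadjusted p under 0.05, where 0.00871% of all genes passed). The interaction values ranged from -0.21 ± 0.18 for Bcl2 to 0.18 ± 0.14 for Pmaip1, and that of Bbc3 moved from -0.11 to -0.30 (adjusted p = 0.773) without ruxolitinib replicate 2 and combination replicate 3. A test over all 4 treatments (limma's F-test) passed for 3 of 10 members, Bcl2l11 (adjusted p = 8.27e-09), Bbc3 (0.00292) and Pmaip1 (0.0272), where 42.8% of all genes passed.

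Between genes, levels were compared as normalised counts per kilobase of annotated exon. After DMSO the order of levels per kilobase was Bak1 (1023 ± 15.3, SD, n = 3), Mcl1 (750.1 ± 21.6), Bax (496.5 ± 16.5), Bid (367.5 ± 4.6), Pmaip1 (130.1 ± 8.44), Bad (128.4 ± 9.89), Bcl2l1 (45.83 ± 0.845), Bbc3 (45.73 ± 0.859), Bcl2l11 (27.12 ± 1.93) and Bcl2 (15.1 ± 1.28). Pmaip1 and Bad, and Bcl2l1 and Bbc3, did not differ beyond their spread, and the ranges of all other neighbours were apart. Among the anti-apoptotic genes, Mcl1 stood far above Bcl2l1 and Bcl2. After GSK-LSD1 the level per kilobase of Bcl2l11 (48.89 ± 3.08, lowest 46.91) lay above that of Bcl2l1 (43.13 ± 3.48, highest 45.53), and Bbc3 (62.13 ± 2.95) lay above both. After DMSO all Bcl2l11 libraries (highest 28.49) had been below all Bcl2l1 libraries (lowest 45.15). The exon length used is that of all annotated exons of a gene together, so levels of genes that use short isoforms are understated.

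Other BCL2 family genes and BH3-only relatives were read from a list of 18, of which 17 were in the table and 9 were high enough to test. Bmf, a BH3-only gene at chr2:118528757-118549687 (GRCm38, minus strand) whose protein is held at the cytoskeleton in healthy cells, rose like Bcl2l11. Its normalised read count was 296.9, 303.1 and 290.1 after DMSO, 355.2, 352.4 and 388.4 after ruxolitinib, 540.5, 567.3 and 527.5 after GSK-LSD1, and 621.9, 643.2 and 529.1 after the combination. All treated groups were above DMSO without overlap, and the libraries with GSK-LSD1 were above those with ruxolitinib alone. Its log2 change was 0.87 ± 0.08 with GSK-LSD1 (adjusted p = 3.59e-08) and 1.00 ± 0.08 with the combination (adjusted p = 2.56e-09), which passed in all 24 alternatives, and 0.30 ± 0.08 with ruxolitinib (adjusted p = 0.0602), which did not pass. Bnip3, a hypoxia-induced mitophagy receptor related to the family, fell by 0.82 ± 0.17 with ruxolitinib (adjusted p = 0.0148), from 103.3, 88.02 and 106 to 47.75, 50.34 and 71.15. That fall failed the test once DMSO replicate 1 or 3, or ruxolitinib replicate 1 or 2, was removed (adjusted p up to 0.0963), and 22.3% of the Bnip3 exon length overlaps an antisense gene. In total 1 of the 9 rose with GSK-LSD1 and 1 with the combination, and 1 fell with ruxolitinib. The shares of all genes tested were 17%, 20.5% and 0.627% in the same order. The anti-apoptotic Bcl2a1 genes were at or under 1.998 normalised counts in every library, but they are near-identical copies whose reads the counting could have dropped.

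Downstream of the mitochondria, 8 of 14 genes for cytochrome c release, the apoptosome and caspases passed with GSK-LSD1, 4 higher and 4 lower. With the combination 10 of 14 passed, 4 higher and 6 lower. In these 2 comparisons 32.5% and 42.3% of all genes tested passed. The list median was -0.08 and -0.19. Casp6, an executioner caspase, had the largest change, from 312.8, 310.1 and 323.8 after DMSO to 926.2, 905.7 and 949.3 after GSK-LSD1 and 859.9, 810.9 and 767.7 after the combination. With ruxolitinib it was lower, at 252.7, 231.2 and 206.5. None of these groups overlapped, and the log2 changes were 1.55 ± 0.08 (adjusted p = 2.67e-12), 1.36 ± 0.08 (adjusted p = 1.53e-11) and -0.46 ± 0.08 (adjusted p = 0.00423), each passing in all 24 alternatives. Casp9, the apoptosome's initiator caspase, rose by 0.27 ± 0.07 with either treatment (adjusted p = 0.00499 and 0.00344). Diablo (SMAC), which antagonises inhibitors of apoptosis, rose by 0.23 ± 0.07 with GSK-LSD1 and by 0.24 ± 0.07 with the combination. Other genes of this list fell. Htra2, a mitochondrial protease, fell by 0.41 ± 0.06 and 0.50 ± 0.06, Endog, a nuclease, by 0.39 ± 0.09 and 0.35 ± 0.09, and the channels Vdac1 by 0.27 ± 0.06 and 0.40 ± 0.06 and Vdac2 by 0.28 ± 0.06 and 0.29 ± 0.06. With the combination, Aifm1, an oxidoreductase, and Cycs, cytochrome c itself, also passed, lower by -0.23 ± 0.07 and -0.80 ± 0.26, Cycs at low counts and with processed pseudogenes that could take its reads. Cycs failed the test without DMSO replicate 2 or 3 or combination replicate 1 (adjusted p up to 0.112). Htra2, Endog and Diablo share between 18.2% and 35.7% of their exon length with a gene on the other strand. With GSK-LSD1, Diablo failed the test once DMSO replicate 3 or replicate 1 or 2 of the treated group was removed (adjusted p up to 0.0899). Diablo with the combination failed without DMSO replicate 3 (0.0534). Apaf1, the apoptosome scaffold, did not pass in these comparisons.

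**Figure D3:**
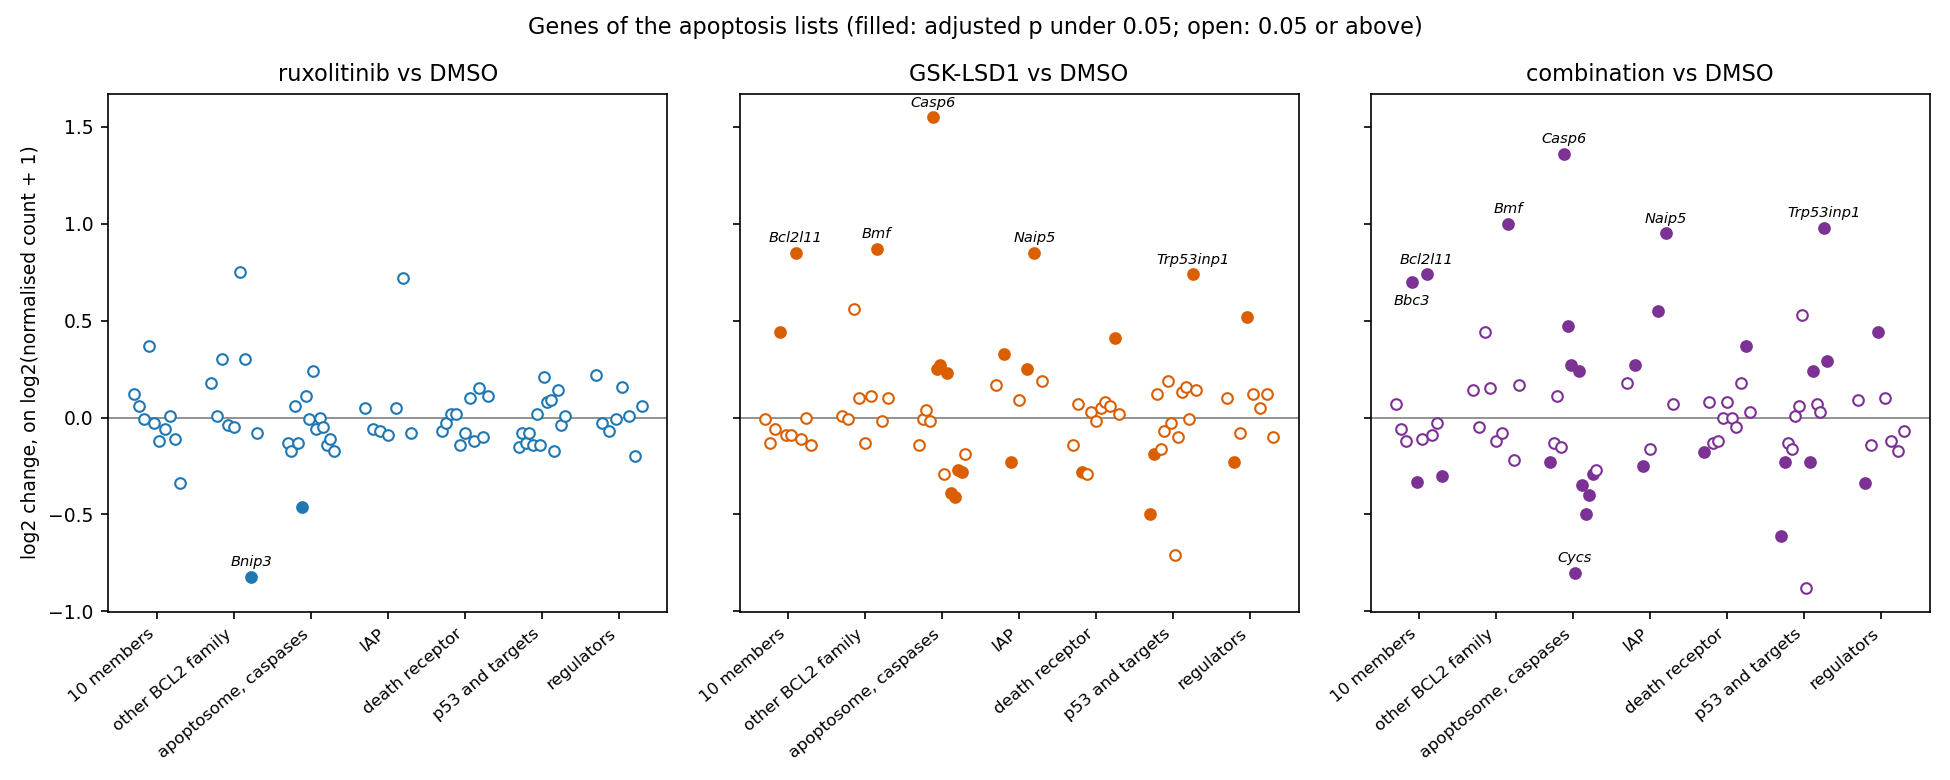
Log2 change (y axis, log2(normalised count + 1)) of each tested gene (points) of the 10 members and of the 6 apoptosis lists, for ruxolitinib, GSK-LSD1 and the combination against DMSO. Filled points passed an adjusted p of 0.05, and genes that passed with a change of at least 0.70 in size are named. Casp6 lies highest, at 1.55 and 1.36, and Bmf and Bcl2l11 lie between 0.74 and 1.00 with GSK-LSD1 and the combination.

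Among 7 inhibitor of apoptosis genes, 3 rose and 1 fell with GSK-LSD1, and likewise with the combination. Over all genes tested, 17% rose and 15.5% fell with GSK-LSD1, and 20.5% and 21.8% with the combination. Birc3 (cIAP2) rose by 0.33 ± 0.09 and 0.27 ± 0.09, and Birc5 (survivin), which also serves mitosis, fell by 0.23 ± 0.07 and 0.25 ± 0.07. Naip2 and Naip5, sensors of bacterial proteins despite their names, rose by 0.25 ± 0.09 and 0.85 ± 0.32 with GSK-LSD1, Naip5 at only 7.922 to 28.92 normalised counts and with overlapping groups. Leaving out DMSO replicate 1 ended the calls of Birc3 (adjusted p = 0.0536 and 0.106), and leaving out DMSO replicate 3 that of Birc5 with GSK-LSD1 (0.0557). The GSK-LSD1 calls of Naip2 and Naip5 were lost without either of several single libraries, DMSO replicate 1 among them (adjusted p up to 0.111 and 0.294). Of 11 tested death receptor genes 1 rose and 1 fell with GSK-LSD1. Tnfsf10, the ligand TRAIL, went from 1040 to 1102 after DMSO to 1353 to 1477 after GSK-LSD1 (0.41 ± 0.08, adjusted p = 0.000354) and 1255 to 1459 after the combination (0.37 ± 0.08, adjusted p = 0.000653). Fadd, the adaptor of these receptors, fell by 0.28 ± 0.09 with GSK-LSD1, and Casp8 by 0.18 ± 0.06 with the combination. Fadd failed the test once DMSO replicate 1 or 3, or treated replicate 2 or 3, was removed (adjusted p up to 0.114). Casp8 failed without DMSO replicate 2 or 3 or combination replicate 2, and after the GC correction (up to 0.0959).

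Genes around p53, which activates Bbc3, Pmaip1 and Bax, went both ways. Of 14 tested, 1 rose and 2 fell with GSK-LSD1, where 17% and 15.5% of all genes did. With the combination 3 rose and 3 fell, where 20.5% and 21.8% of all genes did. Trp53inp1, a p53-induced nuclear protein, rose from 178.2 to 194 after DMSO to 278.7 to 348 after GSK-LSD1 (0.74 ± 0.10, adjusted p = 1.59e-05) and 316.2 to 408.6 after the combination (0.98 ± 0.10, adjusted p = 2.11e-07). Aen, a p53-induced nuclease, fell by 0.50 ± 0.11 and 0.61 ± 0.11, and Ccng1 by 0.19 ± 0.07 and 0.23 ± 0.07. The fall of Ccng1 did not pass in 9 of 24 alternatives with GSK-LSD1 and in 5 with the combination, each without DMSO replicate 2 among them. Trp53 itself, Mdm2 and Cdkn1a did not pass. Of 8 tested regulators of the family, Foxo1, a transcription factor known to drive Bcl2l11, rose from 184.2 to 200.6 after DMSO to 266.8 to 284.2 after GSK-LSD1 (0.52 ± 0.09, adjusted p = 0.000142) and 252.5 to 270.8 after the combination (0.44 ± 0.09, adjusted p = 0.000447). E2f1 fell by 0.23 ± 0.07 and 0.34 ± 0.07, the former failing the test once DMSO replicate 1 or 2, or treated replicate 3, was removed (adjusted p up to 0.0988). The ruxolitinib comparison, where 1.63% of all genes passed, passed for none of the genes in the inhibitor, death receptor, p53 and regulator lists. In these lists 1, 0, 0 and 1 genes had an unadjusted p under 0.05 (limma).

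The rises of Bcl2l11, Bbc3 and Bmf with GSK-LSD1 came with changes in markers of several cell types. The summed level of 10 monocyte and macrophage genes was 608.2 to 648.5 after DMSO, 559.3 to 614.4 after ruxolitinib, 1010 to 1050 after GSK-LSD1 and 1051 to 1095 after the combination. That of 10 mature neutrophil genes was 6073 to 7515, 6297 to 8055, 10905 to 12518 and 17104 to 18939 in the same order. That of 10 mast cell and basophil genes was 24183 to 26882, 27792 to 30226, 29049 to 30966 and 28139 to 30496. With GSK-LSD1 against DMSO, 4 of 7 tested monocyte genes, 4 of 8 neutrophil genes and 7 of 10 mast cell genes rose, and none of them fell. In that comparison 17% of all genes tested rose and 15.5% fell, and with the combination 20.5% and 21.8%. The summed level of 10 erythroid genes, 3 of them globin genes at 0, was 5117 to 5608 after DMSO, 3695 to 4820 after ruxolitinib, 3874 to 4300 after GSK-LSD1 and 3083 to 3986 after the combination. That of 10 stromal and endothelial genes, with Cxcl12, Cdh5 and Kdr at 0, was 3237 to 3354, 3203 to 3647, 4047 to 4328 and 4338 to 4394. Only 3 of these 10 genes were high enough to test, and nearly all of the stromal sum came from them. Of the 12 progenitor genes 4 rose and 4 fell with GSK-LSD1, and 6 rose and 1 fell with the combination, and their summed level was 23631 to 24686, 27634 to 34140, 23506 to 24621 and 30397 to 35199 in the same order of groups. The monocyte, neutrophil and stromal sums, like Bcl2l11, separated the libraries with GSK-LSD1 from those without. In bulk RNA, fewer cells of a type and less RNA per cell cannot be told apart, and the part of cell composition in the changes of the BCL2 family was not tested.

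**Figure D4:**
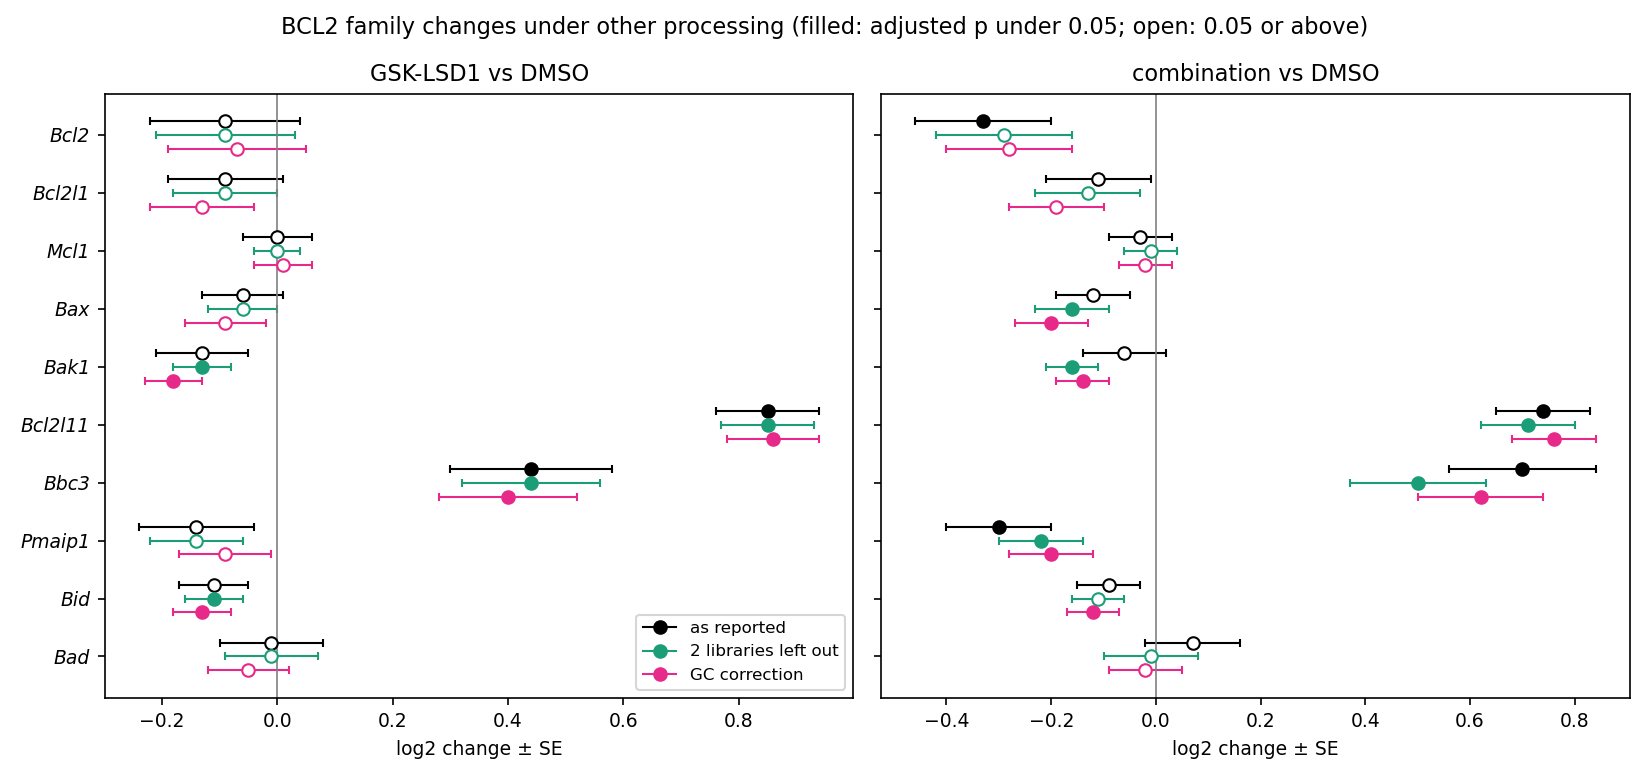
Log2 change ± SE (x axis) of the 10 genes with GSK-LSD1 and with the combination against DMSO, as reported (black), without ruxolitinib replicate 2 and combination replicate 3 (green) and after correction for transcript GC content (pink). Filled points passed an adjusted p of 0.05. Bcl2l11 and Bbc3 are filled in every setting shown, the combination's Bcl2 point is filled only as reported, and Bak1 becomes filled in both other settings.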

How the data were processed

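Total RNA of 12 libraries was sequenced. The authors deposited one table of normalised read counts per gene (a signal, with 1e-05 added to every value). The submitters' processing notes name STAR, DESeq2, mm10 and GRCm38 without roles. The annotation, counting and strand use are not given in the sources used here. Apart from the constant, values of a library were multiples of 1 step (0.9865 to 1.027). They are normalised rather than raw counts, and no count model was run. After the constant was removed, genes with a mean of at least 10 (11484 of 24411; 7367 were 0 throughout) were fitted as log2(value + 1) with limma 3.58.1 (R 4.3.3), 1 mean per treatment, a variance trend and 8 residual degrees of freedom, with Benjamini-Hochberg adjustment over all tested genes and a threshold of 0.05. Fold changes of low genes are understated on that scale. The fit was also run on simulated data. These lacked the deviations with GC content seen in the real libraries, so that run does not give the error rate here. Counting error limits precision at low levels. Positions, exon lengths and transcript GC came from GENCODE annotation of GRCm38, and promoters from RefSeq. The members and the gene lists were chosen with earlier results of these data known. All 10 members are named, and up to 6 genes per list that passed, with the largest changes, except that some list genes are not reported here. Alternatives covered pseudocount, filter, scaling, samples fitted, sample weights, the replicate number and each library left out.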

Additional observations from a re-analysis of the deposited data

How the results depend on the processing

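Correction for transcript GC content, alone or with the replicate number as a block, and leaving out ruxolitinib replicate 2 and combination replicate 3 together were chosen after seeing the data. The number of members that passed with GSK-LSD1 (2) became 4 when only the groups compared were fitted, with sample weights, without those 2 libraries, and after the GC correction with or without the block, Bak1 and Bid being added as lower each time. The share of all genes that passed rose from 32.5% to between 36.7% and 44.7% in these settings. The number of members became 1 under quantile normalisation, where 30.2% of all genes passed. Against ruxolitinib the combination's 1 became 2 under quantile normalisation (Bcl2 added), with sample weights or without both libraries (Bak1 added), and after the GC correction with or without the block (Bbc3 added). In these settings between 30.7% and 37.9% of all genes passed, against 31.6% as reported. The 3 members that passed the F-test became 5 after the GC correction with or without the block (Bak1 and Bid added), where the share of all genes went from 42.8% to 47.8% and 46.2% with the block. The combination's 4 became 6 after the GC correction (Bcl2 lost; Bax, Bak1 and Bid added as lower; 45.5% of all genes against 42.3%) and 5 without both libraries (Bcl2 lost; Bax and Bak1 added; 45.7%). With each single library left out in turn, 0 to 1 members passed with ruxolitinib, 1 to 2 with GSK-LSD1 and 2 to 4 with the combination. The shares of all genes that passed were then 0.278% to 4.81%, 23.8% to 36.6% and 35% to 45.1%. For the combination against ruxolitinib 1 to 2 members passed (25% to 33.3% of all genes), and in the F-test 2 to 4 (35.9% to 46.3%). None passed in any alternative for the combination against GSK-LSD1 or for the interaction. No called member changed direction. Of 1430 alternative values of the members, 51 had another sign than the reported one, all of them uncalled and between -0.09 and 0.06.

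Replicates with the same number did not deviate together (Pearson's r from -0.15 to 0.15 over 18 pairs, against -0.23 to 0.28 over 36 pairs with different numbers). Deviations within groups of 3 libraries that also followed GC content cannot settle whether same-numbered libraries shared a culture or batch. With the replicate block 0, 2 and 3 members passed with ruxolitinib, GSK-LSD1 and the combination, 1 for the combination against ruxolitinib, 0 against GSK-LSD1 and 3 in the F-test. The shares of all genes that passed were then 0.98%, 30.3%, 40.6%, 29.4%, 1.21% and 39.6% in the same order. Among all genes the calls with ruxolitinib were 115 higher and 72 lower as reported, and 151 higher and 151 lower after the GC correction, against 149 and 168 without both libraries. Those for the combination against GSK-LSD1 were 121 higher and 40 lower, and 172 and 105 after the GC correction.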

Other observations

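For the 4 members with the smallest F-test p, the genes whose log2 values ran most alike over the 12 libraries were looked up among 8393 tested genes with a mean of at least 100 normalised counts. The Pearson correlations describe libraries that share their treatments and carry no test. Bcl2l11 was most like Cdc42bpb (0.983), a kinase of the cytoskeleton, and Nprl3 (0.982), a part of the GATOR complex that restrains mTORC1. Bbc3 was most like Grn (0.961), which encodes progranulin, and Pbx2 (0.96), a homeobox factor. Pmaip1 ran most like Cul4b (0.979), a ubiquitin ligase scaffold, and Rab18 (0.945), a small GTPase. Bcl2 was most like Pacsin2 and Usp42 (0.917 each).

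In the direct setting of the combination against ruxolitinib, genes outside the 10 members passed as well. Casp6 rose by 1.82 ± 0.08 (adjusted p = 1.18e-13, limma) and Bmf by 0.71 ± 0.08 (adjusted p = 7.12e-07). Over the apoptosome and caspase list 4 of 14 rose and 5 fell in this comparison, and over the p53 list 3 of 14 rose and 3 fell. Here 16% of all genes rose and 15.6% fell. For the combination against GSK-LSD1 and for the interaction, 1.4% and 0.00871% of all genes passed. No gene of the 6 apoptosis lists passed for the combination against GSK-LSD1 or for the interaction. At an unadjusted p under 0.05 (limma), the apoptosome and caspase list had 3 and 1 of 14 genes. The p53 list also had 3 and 1 of 14. The inhibitor list had 2 and 0 of 7, and the regulator list 2 and 0 of 8. Other family genes had 0 and 1 of 9, and the death receptor list 0 and 0 of 11. Over all 11484 genes tested, 1407 and 534 had such a p.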
